A study of Mus musculus with 11 samples.

Results

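A set of 1241 SMC1 peaks of wild-type mouse embryonic fibroblasts (MEFs) had no overlapping SMC1 peak in SA1-null MEFs, no wild-type SA1 peak and no SA2 peak of either genotype. They were 5.17% (95% Wilson interval 4.90 to 5.46%) of the 24000 wild-type SMC1 peaks. Members were chosen by peak calls, as the intervals of the wild-type SMC1 list that shared no base with the SA1-null SMC1 list, the wild-type SA1 list, the SA1-null SA2 list or the wild-type SA2 list. They are called unmatched SA-free peaks here. The 5227 SMC1 peaks that also had no SA peak but did overlap an SA1-null SMC1 peak are called matched SA-free peaks.

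The lists came from chromatin immunoprecipitation followed by sequencing (ChIP-seq), which recovers the DNA bound by a protein with an antibody and reads it in bulk. Antibodies against SMC1, SMC3, SA2 and SA1 were used in SA1-null MEFs and in wild-type MEFs, all from E12.5 embryos on a mixed C57BL/6 x 129 Sv background, grown in serum and given no treatment. The 2 input libraries hold DNA pooled over both genotypes. Each list stands for 1 library, except the SA1-null SMC1 list, which takes 2 libraries together by its deposited name. Intervals were deposited with no height, score or p-value, so sequencing depth is unknown and absence of a peak from a list does not show absence of the protein. Nothing in the labels says whether libraries came from separate embryos or cultures, and with 1 list per antibody and genotype no difference between genotypes was tested.

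Cohesin is a ring that encloses DNA. It holds sister chromatids together and takes part in the folding of chromosomes into loops. SMC1 and SMC3 are the long arms of the ring and join at a hinge, a kleisin subunit closes it, and either SA1 or SA2 (also named STAG1 and STAG2) sits on the kleisin. In mammalian cells much of the mapped cohesin lies where the DNA-binding protein CTCF is bound. Since SMC1 and SMC3 belong to the same ring, the SMC3 lists give a second reading of the ring at each SMC1 peak. The rule that chose the members used no SMC3 list. It did use the SA1-null SMC1 list, so SMC3 calls, above all those of SA1-null cells, are not independent of the rule.

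The choice of members can be followed list by list. Of the 24000 wild-type SMC1 peaks, 1593 (6.64%) had no SA1-null SMC1 peak. Removing those with a wild-type SA1 peak left 1255, removing those with a wild-type SA2 peak left 1250, and removing those with an SA1-null SA2 peak left 1241. SA-free peaks thus made up 77.9% of all wild-type SMC1 peaks missing from the SA1-null SMC1 list. Of the 6468 SA-free peaks, 19.2% (interval 18.2 to 20.2%) were unmatched. Of the 17532 SMC1 peaks with an SA peak, 352 were unmatched (2.01%, interval 1.81 to 2.23%). These shares follow from the rule and are given as a description. The SA1-null SMC1 list was the longer one, with 47003 peaks against 24000 in wild-type cells. With only its 24000 widest peaks used, 3328 SA-free peaks would have been unmatched. The members were 5.17% of a list whose deposited name gives a false discovery rate of 10, taken as a percentage. A rate for a whole list does not give the rate among the members, which was not tested.

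SMC3 was called at few of the unmatched SA-free peaks. An SA1-null SMC3 peak lay on 306 of the 1241 (24.7%, interval 22.3 to 27.1%), where all wild-type SMC1 peaks gave 90.2%. A wild-type SMC3 peak lay on 59 of the 1241 (4.75%, interval 3.70 to 6.08%), where all wild-type SMC1 peaks gave 60.7%. Both shares were far below those of the SMC1 list as a whole. The SA1-null SMC3 list was the longer, with 34802 peaks against 15564 in wild-type cells. With only its 15564 widest peaks used it lay on 7.33% of members, a setting chosen after seeing the data. The 90.2% above is for the uncut list and is no baseline for this value. With the SA1-null SMC1 list of the rule cut in this way instead, to its 24000 widest peaks, the 3328 members then found had SA1-null SMC3 on 58.2% and wild-type SMC3 on 18.7%.

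Matched SA-free peaks, which likewise have no SA peak, carried SMC3 more often. The SA1-null SMC3 list had a peak at 24.7% of unmatched and at 84.98% (interval 84.0 to 85.9%) of matched SA-free peaks, a difference of -60.3 percentage points (95% Newcombe interval -62.8 to -57.7). In the wild-type SMC3 list the shares were 4.75% of unmatched and 29.9% (interval 28.7 to 31.2%) of matched SA-free peaks, a difference of -25.2 points (interval -26.8 to -23.4). Neither interval includes 0. With the SA1-null SMC1 list cut to its 24000 widest peaks the differences were -31.3 points for SA1-null SMC3 and -13.3 points for wild-type SMC3, and with the SA1-null SMC3 list cut to its 15564 widest peaks the first was -33.1 points. The intervals reflect counting error only. Peaks of 1 library are not replicates of a condition, so no p-value is given.

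**Figure D1:**
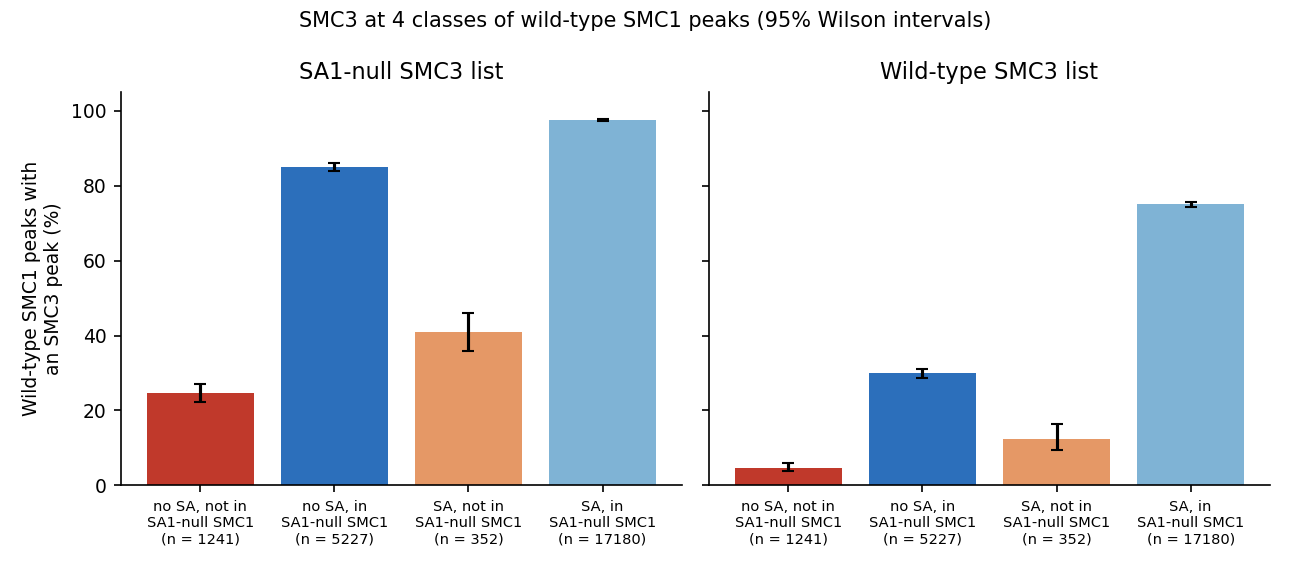
Share of wild-type SMC1 peaks (percent, vertical axis) that overlap a peak of the SA1-null SMC3 list (left) or the wild-type SMC3 list (right), in 4 classes set by an SA peak and by an SA1-null SMC1 peak. Bars are shares and lines 95% Wilson intervals; the unmatched SA-free class is the lowest in both panels, at 24.7% and 4.75%.

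Absence from the SA1-null SMC1 list went with a lower SMC3 share also where an SA peak was present. The shares themselves were higher there than at SA-free peaks. Of the 352 unmatched SMC1 peaks with an SA peak, 144 had an SA1-null SMC3 peak (40.9%, interval 35.9 to 46.1%) and 44 a wild-type one (interval 9.44 to 16.4%). Unmatched SA-free peaks lay below them by -16.3 points (interval -22.0 to -10.7) in the SA1-null SMC3 list and by -7.75 points (interval -11.8 to -4.41) in the wild-type one. At the 17180 matched peaks with an SA peak the shares were 97.6% and 75.1%.

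The members fell into 4 groups by the 2 SMC3 lists. In 906 (73.0%, interval 70.5 to 75.4%) neither SMC3 list had a peak. In 276 (22.2%) SMC3 was called in SA1-null cells alone, in 30 (2.42%) in both genotypes, and in 29 (2.34%) in wild-type cells alone. In the largest group SMC1 was thus called in wild-type cells and SMC3 in neither genotype. No interval of any of the other 9 lists overlapped 904 of the 1241, and for 4 of these lists the rule fixed this. Over all wild-type SMC1 peaks, 9.04% had no SMC3 and 30.3% had SMC3 in SA1-null cells alone. SMC3 was called in both genotypes at 59.975% of them and in wild-type cells alone at 0.721%. Among matched SA-free peaks the same states held 726 (13.9%) with no SMC3, 2937 (56.2%) with SMC3 in SA1-null cells alone, 1505 (28.8%) with both and 59 (1.13%) with SMC3 in wild-type cells alone.

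At the 29 members with SMC3 in wild-type cells alone, both arms of the ring were called in wild-type cells and neither in SA1-null cells. This state held 2.34% of members and 6.25% of unmatched peaks with an SA peak. At the 276 with SMC3 in SA1-null cells alone, each genotype had 1 of the 2 arms called on the member itself and it was not the same one. That state held 22.2% of members and 34.7% of unmatched peaks with an SA peak. It rests on the overlap rule. Among all 306 members with SA1-null SMC3, 19 had an SMC3 peak that also overlapped an SA1-null SMC1 peak beside the member.

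Where SMC3 was called in wild-type cells, it was also less often called again in SA1-null cells at the members. An SA1-null SMC3 peak was present at 30 of the 59 members with a wild-type SMC3 peak (50.8%, interval 38.4 to 63.2%), and at 1505 of 1564 matched SA-free peaks with one (96.2%, interval 95.2 to 97.1%). The difference was -45.4 points (interval -57.8 to -33.0), and all wild-type SMC1 peaks with wild-type SMC3 gave 98.8%. Of the 352 unmatched peaks with an SA peak, 44 had wild-type SMC3 and 22 of these had SA1-null SMC3 (50%, interval 35.8 to 64.2%). The difference between unmatched SA-free peaks and these was 0.85 points, with an interval from -18.0 to 19.6, too wide to tell the classes apart or to call them alike. Where wild-type SMC3 was missing, SA1-null SMC3 was present at 23.4% (interval 21.0 to 25.8%) of 1182 members, at 80.2% of 3663 matched SA-free peaks and at 77% of all such wild-type SMC1 peaks.

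The SMC3 peaks that did lie on members had their centres close to those of the SMC1 peaks. The SA1-null SMC3 peaks had a median width of 589 bp at members and 664 bp at matched SA-free peaks, against 652 bp in their whole list. Their centres lay a median of 59.8 bp from the centre of the SMC1 peak at members and 55.5 bp at matched SA-free peaks. They covered a median of 96.8% of the SMC1 peak at members. In 4 of 306 members the shared stretch was 100 bp or shorter. For wild-type SMC3 the median width was 503 bp at members and 513 bp at matched SA-free peaks, and the median offset of centres was 59 bp at members and 47.8 bp at matched SA-free peaks. At the 30 members with SMC3 in both genotypes, the median SMC3 width was 562.5 bp in SA1-null and 497.5 bp in wild-type cells, and the SA1-null peak was the wider in 20 of 30. SMC3 peaks were wider in SA1-null cells over the whole lists too, with medians of 652 bp and 563 bp in wild-type cells.

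A few SMC3 peaks on members were broad enough to reach a neighbouring SMC1 peak. The 306 members with SA1-null SMC3 lay under 304 distinct SMC3 peaks, since a broad peak can cover neighbouring members. For 19 of the 306 members (6.21%) the SMC3 peak also overlapped an SA1-null SMC1 peak beside the member. For 9 members it reached a wild-type SA1 peak and for 1 an SA1-null SA2 peak.

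The members were narrow SMC1 peaks. Their wild-type SMC1 width ran from 243 to 1075 bp with a median of 465 bp, against a median of 541 bp at matched SA-free peaks, 456 bp at unmatched peaks with an SA peak and 600 bp at matched peaks with one. Members with SMC3 in both genotypes were wider, with a median of 558 bp, than those with no SMC3, with 452 bp. Width comes from the list that the rule started from and is given as a description. In the narrowest of 10 classes of width (189 to 407 bp) 32.8% of SA-free peaks were unmatched, and in the widest (757 to 3079 bp) 8.39% were.

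**Figure D2:**
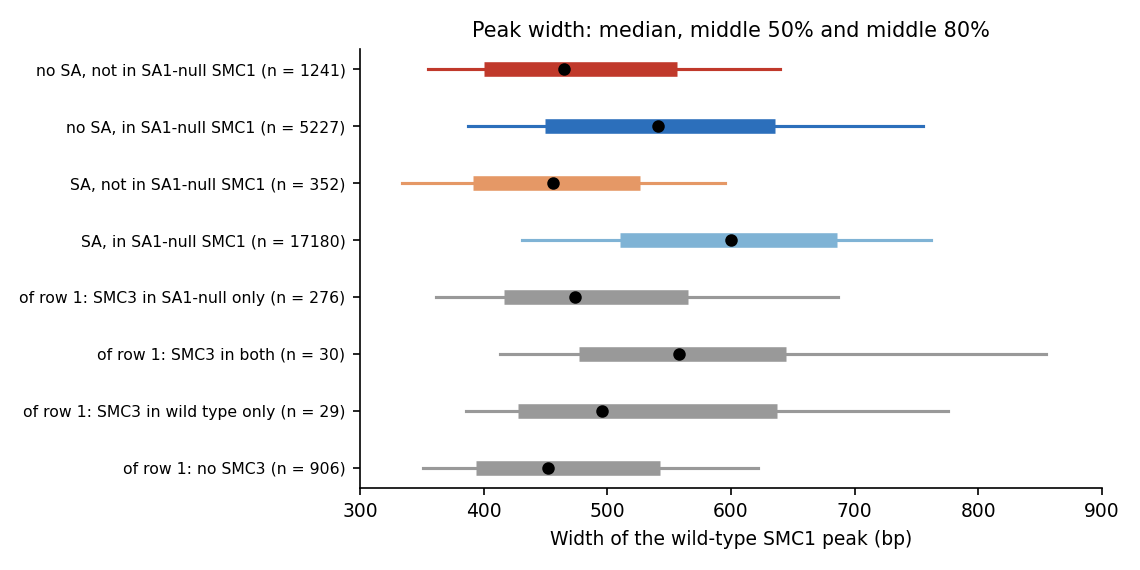
Width in bp (horizontal axis) of wild-type SMC1 peaks in 4 classes and, in grey, in the 4 SMC3 states of the first class. Points are medians, thick lines hold the middle 50% and thin lines the middle 80% of peaks; the unmatched classes, with medians of 465 and 456 bp, lie left of the matched ones.

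SMC3 shares were higher in the widest than in the narrowest class for both kinds of SA-free peak, and unmatched peaks had the lower share in each of the 10 classes for both SMC3 lists. In the narrowest class 18.7% of unmatched and 76.2% of matched SA-free peaks had an SA1-null SMC3 peak, and in the widest class 38.3% of unmatched and 92.6% of matched ones did. For wild-type SMC3 the shares were 2.83% of unmatched and 19.2% of matched peaks in the narrowest class. In the widest they were 19.1% (interval 10.4 to 32.5%) of unmatched and 34.1% (interval 30.1 to 38.3%) of matched peaks, and these intervals overlap. The widest class held 47 unmatched peaks, so its share is imprecise. Averaged within the 10 classes with Mantel-Haenszel weights, the differences between unmatched and matched SA-free peaks were -57.8 points (interval -60.5 to -55.2) for SA1-null SMC3 and -22.2 points (interval -24.0 to -20.5) for wild-type SMC3.

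**Figure D3:**
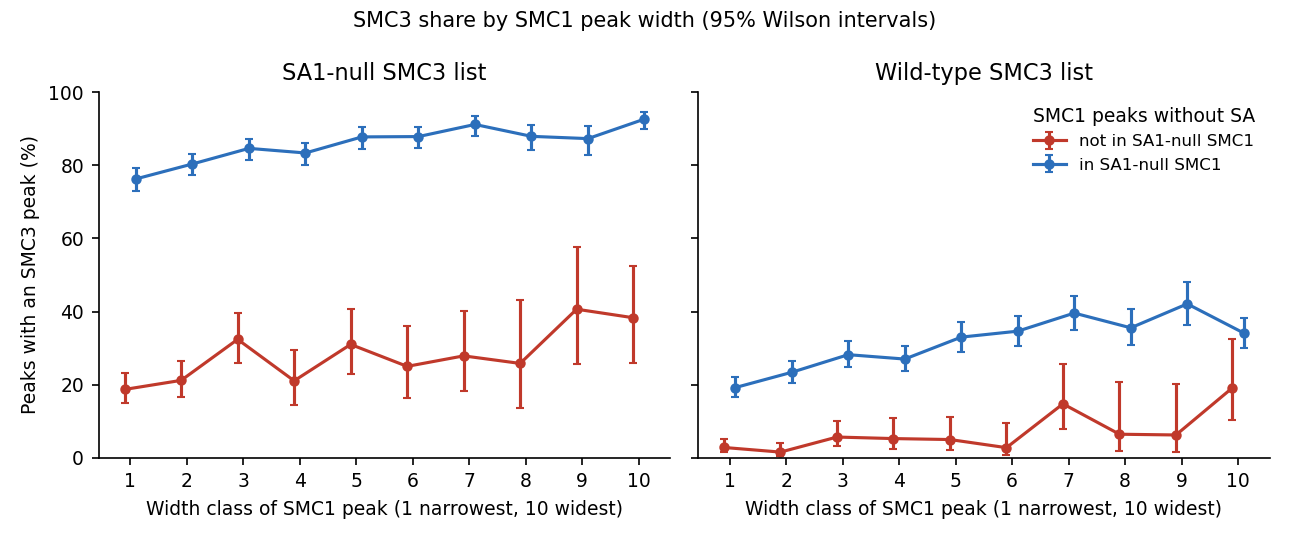
Share of SA-free SMC1 peaks with an SMC3 peak (percent, vertical axis) in 10 classes of SMC1 width, from narrowest to widest, for the SA1-null (left) and wild-type (right) SMC3 lists. Red points are unmatched and blue points matched peaks with 95% Wilson intervals; for SA1-null SMC3 the widest class reads 38.3% and 92.6%.

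Most members were not side by side with an SMC1 peak of SA1-null cells. Their median distance to one was close to that of wild-type SMC1 peaks as a whole, overlapping peaks left out. The gap to the nearest SA1-null SMC1 peak had a median of 8.57 kb, and the middle 80% of members lay between 0.584 and 58.0 kb. An SA1-null SMC1 peak lay within 1 kb of 184 members (14.8%). A non-overlapping one lay as near for 12.0% of all wild-type SMC1 peaks and 16.3% of matched SA-free peaks. For 16 of the 184 members it did so on both sides, and 10 of the 16 had an SA1-null SMC3 peak on the member. At matched SA-free peaks the nearest SA1-null SMC1 peak other than the overlapping one lay at a median of 7.0 kb. Over all wild-type SMC1 peaks this median was 8.72 kb.

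The SA1-null SMC3 share fell with distance from SA1-null SMC1. It was 38.7% (interval 30.2 to 48.0%) of the 111 members closer than 0.5 kb to an SA1-null SMC1 peak, 26.7% of the 363 members from 0.5 to 5 kb, 23.2% of the 617 from 5 to 50 kb and 15.3% (interval 10.4 to 22.0%) of the 150 farther away. Wild-type SMC3 ranged from 4.41% to 7.21% over the same distances with overlapping intervals. The values are descriptive, since the distance is measured to a list that the rule used.

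Members also lay in slightly emptier surroundings than matched SA-free peaks. The nearest wild-type SA1 peak was at a median of 25.7 kb for members and 19.9 kb for matched SA-free peaks. No wild-type SA1 peak lay within 100 kb of 12.9% of members and of 6.39% of matched SA-free peaks. The nearest SA1-null SA2 peak was at a median of 91.3 kb for members and 84.7 kb for matched SA-free peaks, and the nearest wild-type SA2 peak at 76.7 kb for members and 67.2 kb for matched ones. For the SMC3 lists, which the rule did not use, the nearest peak that did not overlap was at a median of 13.5 kb for members and 10.005 kb for matched SA-free peaks in SA1-null cells. In wild-type cells it was at 34.6 kb for members and 27.1 kb for matched ones. The spreads within each class were much wider than these shifts. Over all wild-type SMC1 peaks the medians were 17.3 kb for wild-type SA1, 73.6 kb for wild-type SA2 and 89.1 kb for SA1-null SA2. For SMC3 they were 12.0 kb in SA1-null and 29.0 kb in wild-type cells. Unmatched peaks with an SA peak lay farther than members from SA1-null SA2 (124 kb), wild-type SA2 (94.7 kb), SA1-null SMC3 (22.9 kb) and wild-type SMC3 (46.8 kb). From wild-type SA1 they lay less far (20.1 kb).

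**Figure D4:**
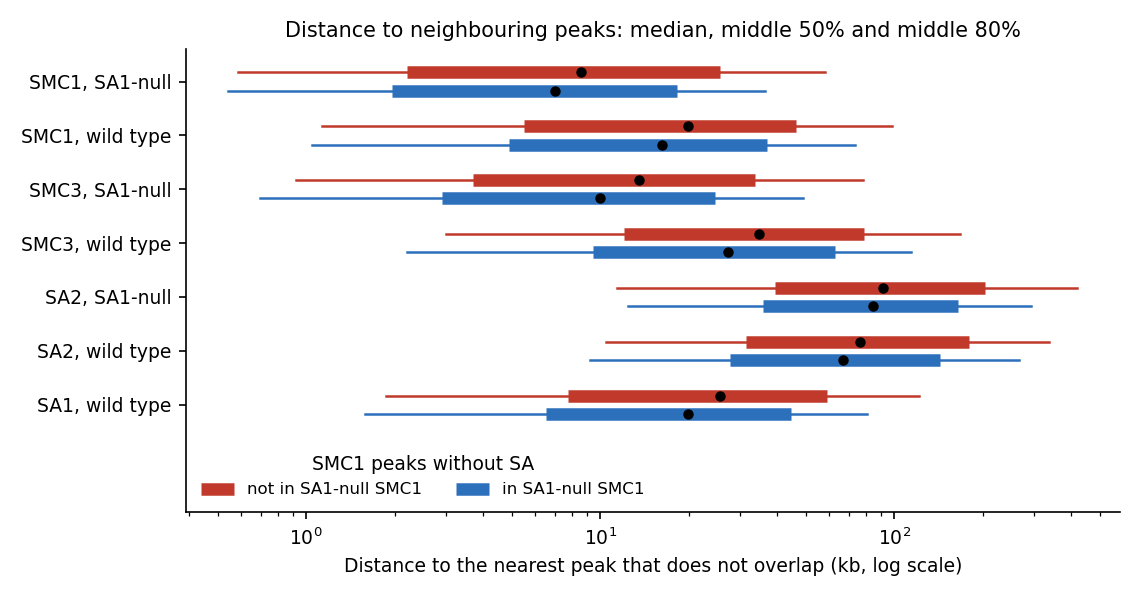
Distance in kb (logarithmic horizontal axis) from SA-free SMC1 peaks to the nearest peak of each list that does not overlap them, with unmatched peaks in red above matched peaks in blue. Points are medians, thick lines hold the middle 50% and thin lines the middle 80%; medians to SA1-null SMC1 were 8.57 kb for unmatched and 7.0 kb for matched peaks.

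The rule has a sharp edge at 1 shared base. Just inside it, 30 members lay at most 100 bp from an excluding peak, the nearest at 4 bp, and 15 of these (50%) had an SA1-null SMC3 peak and 2 a wild-type one. Just outside it, 22 wild-type SMC1 peaks shared at least 2 bp and at most 100 bp with an excluding peak, and 12 of these (54.5%) had an SA1-null SMC3 peak and 3 a wild-type one. The 1211 members more than 100 bp from any excluding peak had SA1-null SMC3 in 24.0% and wild-type SMC3 in 4.71%.

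Members were spread over all 20 chromosomes in the lists. They were 5.23% ± 0.721 (SD over 19 autosomes) of the wild-type SMC1 peaks of an autosome, from 3.86% on chromosome 7 to 6.68% on chromosome 19, and 4.95% on chromosome X. Of SA-free peaks, 19.4% ± 2.76 (SD over 19 autosomes) were unmatched, with 13.5% on chromosome 7 and 25.1% on chromosome 19, and 28.9% (interval 20.3 to 39.4%) of 83 on chromosome X. Embryo sex is not in the labels. The lower SMC3 share of members held on each chromosome. SA1-null SMC3 was on 11.5% to 35.3% of unmatched and on 79.7% to 87.6% of matched SA-free peaks of a chromosome. Wild-type SMC3 was on 0% to 8.11% of unmatched and on 24.2% to 39.0% of matched ones, and on chromosomes 9, 14 and X no member had it.

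**Figure D5:**
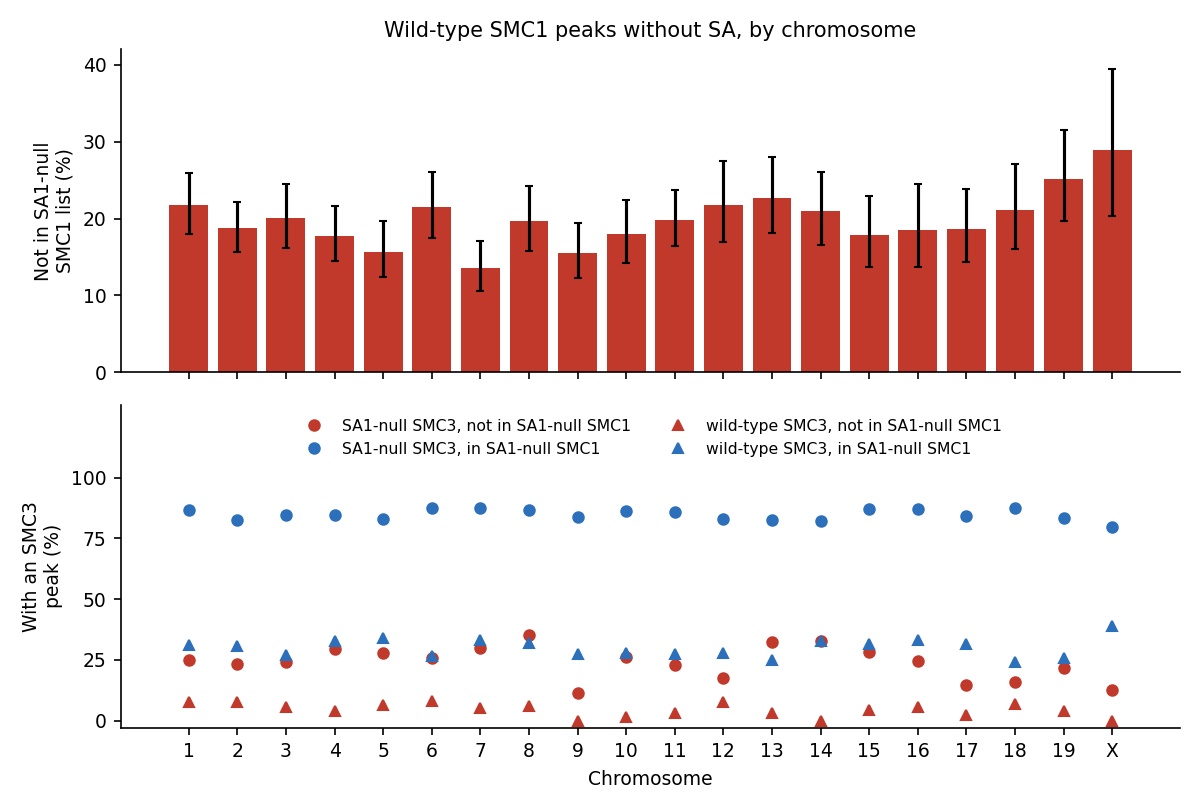
Top, share of SA-free SMC1 peaks of each chromosome that were unmatched (percent, with 95% Wilson intervals), lowest on chromosome 7 at 13.5% and highest on chromosome X at 28.9%. Bottom, share of unmatched (red) and matched (blue) SA-free peaks with an SA1-null SMC3 peak (circles) or a wild-type SMC3 peak (triangles); for each SMC3 list red lies below blue on all 20 chromosomes.

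Members were few and mostly far apart, yet they had another member as their nearest SMC1 peak more often than wild-type SMC1 peaks as a whole. The nearest wild-type SMC1 peak was itself a member for 122 of 1241 members (9.83%, interval 8.30 to 11.6%) and for 348 of 5227 matched SA-free peaks (6.66%, interval 6.01 to 7.37%), against 4.996% of all wild-type SMC1 peaks. These shares rest on the rule and are a description. The gap between successive members on a chromosome had a median of 1007 kb, and 10 of 1221 gaps were under 1 kb. In the order of wild-type SMC1 peaks along the chromosomes, 1019 members stood between peaks that were not members, 182 came as pairs of consecutive peaks, 36 as 12 runs of 3 and 4 as a single run on chromosome 12 between 47035171 and 47701483 (mm9). In windows of 1 Mb the highest number was 6, on chromosome 1 between 92000001 and 93000000, where 30 wild-type SMC1 peaks lay. In 6 windows there were 5 members, among them those on chromosome 4 from 154000001 (29 SMC1 peaks) and on chromosome 8 from 129000001 (38 SMC1 peaks).

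Background intervals were rare among the members. An interval of the 2 input lists or of the SA1-null SA1 list, where the antibody has no target, lay on 4 of 1241 members (0.322%, interval 0.125 to 0.826%). It lay on 5 of 5227 matched SA-free peaks (0.0957%), on 3 of 352 unmatched peaks with an SA peak (0.852%) and on 0.104% of all wild-type SMC1 peaks. The 4 members were chr5:105356754-105357708, which was in all 3 lists, chr5:14903305-14903996, chr17:36368113-36368771 and chr16:57391509-57392035 (mm9). The input and SA1-null SA1 lists hold between 177 and 436 intervals, so few overlaps could be found.

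Single positions show the states described above. Coordinates are those of the wild-type SMC1 peak in mm9. Positions with both ring arms in wild-type cells and none in SA1-null cells were ranked by summed width of their SMC1 and SMC3 peaks. The first was the background position chr5:105356754-105357708. The next, chr12:15613495-15614512, was 1018 bp wide in SMC1 and carried a wild-type SMC3 peak of 690 bp that met it at its left end only, from 15612813 to 15613502. An SA1 peak of wild-type cells lay 0.168 kb from it and an SA1-null SMC3 peak 0.079 kb away, and the nearest SA1-null SMC1 peak was 9.48 kb away.

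At the remaining 3 of the 5, no peak of an SA1-null ring list lay within 1 kb. At chr4:107263489-107264272 the SMC1 peak of 784 bp enclosed an SMC3 peak of 611 bp, and the nearest SA1-null SMC1 and SMC3 peaks were 1.79 and 1.72 kb away. At chr1:21030988-21031624 SMC1 and SMC3 peaks of 637 and 632 bp lay 11.02 kb from the nearest SA1-null SMC1 peak and 11.01 kb from the nearest SA1-null SMC3 peak. At chr2:64010155-64010876 peaks of 722 and 531 bp lay 73.1 kb from the nearest SA1-null SMC1 peak and 72.9 kb from the nearest SA1-null SMC3 peak. The nearest wild-type SA1 peak there was 285 kb away.

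Positions with SMC3 in both genotypes and SMC1 in wild-type cells alone were led by chr11:120205274-120206118. Its SMC3 peak was 1546 bp wide in SA1-null cells and 1331 bp in wild-type cells, and the nearest SA1-null SMC1 peak was 8.58 kb away. At chr15:66850648-66851645 the SMC3 peaks were 914 bp in SA1-null and 475 bp in wild-type cells, with the nearest SA1-null SMC1 peak at 50.2 kb. The other 3 were chr13:102737068-102738116, chr1:186356136-186356980 and chr6:135282441-135283385. An SA1-null SMC1 peak lay 0.106 kb from the one on chromosome 13 and 0.073 kb from the one on chromosome 6.

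Positions with SMC3 in SA1-null cells alone included the broadest SMC3 peaks on any member. At chr9:70056076-70056791 an SA1-null SMC3 peak of 3007 bp ran from 70055057 to 70058063 over an SMC1 peak of 716 bp, with an SA1-null SMC1 peak 0.062 kb from the member. At chr13:60274908-60275813 the SA1-null SMC3 peak was 2899 bp wide, and at chr13:51941815-51942492 it was 2286 bp wide. SA1-null SMC1 peaks lay 0.296 and 0.151 kb from these 2 members. On chromosome 9 and at both chromosome 13 positions the SMC3 peak ran past the member by more than that gap on either side. It thus also overlapped the SA1-null SMC1 peak. Wild-type SA1 peaks lay 0.553 kb from the member on chromosome 9 and 0.377 and 0.381 kb from those on chromosome 13. At chr16:77644055-77645034, by contrast, an SA1-null SMC3 peak of 1427 bp lay 40.2 kb from the nearest SA1-null SMC1 peak. The fifth was chr7:96786680-96787253, with an SA1-null SMC3 peak of 1662 bp. The widest member of all, chr4:71674776-71675850 with 1075 bp, had no SMC3 peak in either genotype and no SA1-null SMC1 peak within 180 kb. The other 4 of the 5 widest were chr13:102737068-102738116, chr14:121571329-121572358, which had SA1-null SMC3 alone, chr12:15613495-15614512 and chr15:66850648-66851645.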

How the data were processed

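The authors deposited 10 interval lists with a chromosome, a start and an end, and no other value. Per the submitters' processing notes, the build was mm9 and the tools included CASAVA 1.7. Which aligner and which peak caller made the lists is not stated in the sources used here. The deposited names give a false discovery rate of 10 and the input each list was called against. SMC1, SMC3 and SA1-null SA1 were called against one input, and SA2 and wild-type SA1 against the other. Of the 11 samples, the 2 SA1-null SMC1 libraries share 1 list.

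Starts were read as 0-based and printed as 1-based. Overlap meant at least 1 shared base, and a distance is the number of bases between 2 intervals. Computation used Python 3.11.15, numpy 2.4.6, pandas 2.3.3 and statsmodels 0.14.6. With bedtools 2.31.1 the overlap counts came out equal for each of 9 lists set against wild-type SMC1. On simulated data with 4000 intervals, 100% of the planted members were recovered. Partners there were shifted copies of the SMC1 intervals and decoys shared no base, so this checks the code and not the choice of members.

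Shares have 95% Wilson intervals and differences of shares Newcombe intervals; both cover counting error only. A difference was called when its interval left out 0. Members, classes and rules were chosen with earlier results of these data known. Named positions were the 5 widest members, the 5 with the largest summed SMC1 and SMC3 width in each SMC3 state, up to 5 on background intervals, and the 3 windows of 1 Mb with most members, ties in chromosome order. Genes and sequences of mm9 were not used here. Alternatives tried were an overlap of 50% of the shorter interval, excluding lists extended by 500 bp, merging of intervals closer than 1000 bp, removal of background, the widest 50% of SMC1 peaks, classes of width and removal of chromosome X.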

Additional observations from a re-analysis of the deposited data

How the results depend on the processing

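All 19 values of the 2 differences between unmatched and matched SA-free peaks kept their direction with intervals that left out 0, from -63.3 to -31.3 points for SA1-null SMC3 and from -27.0 to -13.3 points for wild-type SMC3. The smallest of these came from the cut SA1-null SMC1 list. Over 10 alternatives, the other values that left the 95% interval of the reported share, or that changed the number of members by over 1.5 times, were these. With the widest 50% of SMC1 peaks there were 246 members, 10.6% of SA-free peaks, with SA1-null SMC3 on 30.5%, wild-type SMC3 on 9.76% and background on 1.22%. With excluding lists extended by 500 bp, 18.0% of SA-free peaks were unmatched.

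The remaining settings, and some pairings of results with those above, were chosen after seeing the data. With the SA1-null SMC1 list cut to its widest intervals, to the length of the wild-type list, there were 3328 members, 51.5% of SA-free peaks, with SA1-null SMC3 on 58.2%, wild-type SMC3 on 18.7% and background on 0.120%; fewer possible partners raise the number by construction. With the SA1-null SMC3 list cut in the same way, SA1-null SMC3 lay on 7.33% of members. Members over 5 kb from an SA1-null SMC1 peak numbered 767, with SA1-null SMC3 on 21.6%. No paired analysis was possible because only SMC1 in SA1-null cells has numbered replicates, which share 1 list, so leaving out a library was not possible either.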

Other observations

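The 59 members with a wild-type SMC3 peak were spread over 17 chromosomes, and 3 of them lay within 192 kb of each other on chromosome 6 between 135091387 and 135283385 (mm9), the highest number in a stretch of up to 200 kb. This stretch was chosen after its values were seen. It held 7 wild-type SMC1 peaks, of which 3 were members, 1 was a matched SA-free peak and 3 were matched peaks with an SA peak. At chr6:135091387-135091952 and chr6:135214168-135214652 wild-type SMC3 peaks of 577 and 404 bp had no SA1-null SMC3 partner, and the nearest SA1-null SMC1 peaks lay 2397 and 1501 bp away. At chr6:135282441-135283385 SMC3 was called in both genotypes, with 653 bp in SA1-null and 547 bp in wild-type cells. Over the whole stretch the SA1-null lists held 9 SMC1, 8 SMC3 and 2 SA2 peaks, and the wild-type lists 7 SMC1, 6 SMC3, 4 SA2 and 6 SA1 peaks.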
